A study of Mus musculus with 4 samples.

Results

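RNA-seq of WT and *Phf2* KO MEFs was read for 9 genes out of the 24391 gene symbols in the count table. They were chosen by symbol: *Csf1*, a growth factor for macrophages, and the genes *Csf1r*, *Spi1*, *Irf8*, *Tyrobp*, *Trem2*, *Cx3cr1*, *Apoe* and *Lyz2*, which are used as marks of the macrophage lineage. The 2 WT and 2 *Phf2* KO libraries came from primary fibroblasts of E13.5 embryos held in quiescence, and all 4 had the genotype Phf2 flox/flox, ERCre/+. CreERT2 is expressed from the Rosa26 locus and is active only when 4-hydroxytamoxifen (4-OHT) is present. The *Phf2* KO libraries are those labelled with tamoxifen, given as 0.5 µM 4-OHT for 7 days in Opti-MEM with charcoal-treated serum. Quiescence is otherwise described with a resting medium, and the sources do not say which medium was used for WT. No library had active Cre with intact *Phf2*, so loss of *Phf2*, Cre activity and 4-OHT cannot be told apart in these groups.

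Csf1 is a secreted cytokine made by fibroblasts, endothelial cells and osteoblasts, and it binds the receptor tyrosine kinase Csf1r on monocytes and macrophages, which need it to survive, divide and mature. The transcription factor PU.1, encoded by *Spi1*, drives *Csf1r* and much of the macrophage programme, and Irf8 acts with PU.1. Macrophages arise early in mouse development, and Csf1 secreted by fibroblasts supports macrophages in culture.

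The libraries held between 21094743 and 26094268 counts, and 3 counts, taken as the limit of detection, were worth between 0.116 and 0.145 normalized CPM (reads of a gene relative to the TMM-scaled total of its library), which covers counting error only. *Phf2* itself gave 3244 and 3680 counts in WT against 1454 and 2158 in *Phf2* KO MEFs, replicate 1 first in each group. This was 57.9% of the WT level in CPM, a log2 fold change of -0.79 with a standard error of 0.14. Even so, edgeR's quasi-likelihood test did not call *Phf2* at an adjusted p under 0.1 (adjusted p = 0.999). Counts per gene do not show which exons the remaining reads came from. *Xist* was counted between 8336 and 10042 times in the libraries numbered 1 and at most 12 times in those numbered 2, and *Ddx3y* showed the reverse, so embryo sex cannot be told apart from replicate number. Fibroblast markers dominated all 4 libraries, with a sum over 16 genes between 76759 and 92345 CPM, against 658 to 3249 CPM for 22 macrophage reference markers that include none of the 9 genes. The summed macrophage markers stood at 3237 and 658 CPM in WT replicates 1 and 2 and at 3249 and 948 CPM in the same-numbered *Phf2* KO libraries. The libraries numbered 1 thus held more macrophage marker RNA than those numbered 2 in both groups, and in bulk RNA fewer macrophages and less RNA per macrophage cannot be told apart.

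The ligand varied little over the 4 libraries. *Csf1* (chromosome 3, 107543966 to 107563387 of mm9, reverse strand, 12 exons after merging transcripts) gave 14247 and 14945 counts in WT against 11828 and 13507 in *Phf2* KO MEFs, replicate 1 first in each group. Scaled, these were 591 and 576 CPM in WT against 571 and 562 CPM in *Phf2* KO MEFs. Both *Phf2* KO values lay just below both WT values, which 18% of the 13668 genes tested also did. The log2 fold change of *Phf2* KO over WT was -0.043 with a standard error of 0.088 (edgeR's quasi-likelihood test, adjusted p = 0.999), and it stayed between -0.077 and -0.012 when each library was left out in turn. Replicate 1 exceeded replicate 2 by 0.037 log2 units in WT and 0.023 in *Phf2* KO, so *Csf1* did not follow the macrophage markers.

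The other ligands were scarce. *Il34*, the second ligand of Csf1r, gave 62 and 54 counts in WT against 44 and 63 in *Phf2* KO MEFs. *Cx3cl1*, which encodes the membrane-bound chemokine that Cx3cr1 recognises, gave 217 and 336 counts in WT against 139 and 269 in *Phf2* KO MEFs. It was lower in *Phf2* KO by 0.42 log2 units within replicate number 1 and by 0.21 within number 2, and was not called. The granulocyte factors *Csf2* and *Csf3* were counted 0 times and 1 time over all 4 libraries, where 3 counts per library would set the limit.

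The receptor behaved differently from its ligand. *Csf1r* (chromosome 18, 61265226 to 61291803, forward strand, 23 merged exons) gave 6161 and 1433 counts in WT against 6035 and 1733 in *Phf2* KO MEFs. These were 256 and 55.2 CPM in WT against 291 and 72.1 CPM in *Phf2* KO MEFs. Both libraries numbered 1 were high and both numbered 2 were low, and the groups overlapped. Replicate 1 exceeded replicate 2 by 4.63-fold in WT and 4.04-fold in *Phf2* KO. Within each number the *Phf2* KO library was above the WT library, by 1.14-fold in replicate 1 and 1.31-fold in replicate 2. The fit put the log2 fold change at 0.22 with a standard error of 0.95, and *Csf1r* was not called (edgeR, adjusted p = 0.999). *Hmgxb3* overlaps *Csf1r* on the opposite strand, and 822 of 5225 stretches of 50 bases (the read length) in *Csf1r* coding transcripts, or 15.7%, occur in antisense in *Hmgxb3*. The alignment is described as reverse stranded, but whether reads were counted by strand is not stated, so part of the *Csf1r* count may belong to *Hmgxb3*.

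**Figure D1:**
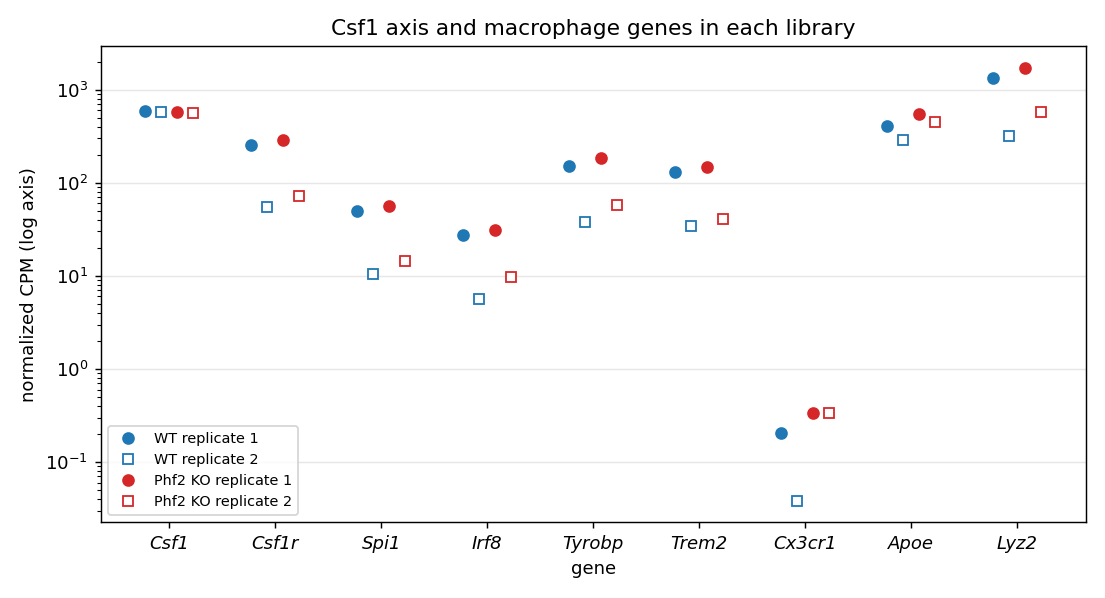
Normalized CPM (log axis) of the 9 genes in each of the 4 libraries, with 1 point per library, blue for WT and red for *Phf2* KO, filled circles for replicate 1 and open squares for replicate 2. *Csf1* sits between 562 and 591 CPM in all libraries, whereas *Csf1r*, *Spi1*, *Irf8*, *Tyrobp*, *Trem2* and *Lyz2* are high in both libraries numbered 1, and *Cx3cr1* is near the limit of detection.

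Both lineage transcription factors had the pattern of the receptor. *Spi1* (chromosome 2, 90922547 to 90955913, forward strand, 7 merged exons, listed as *Sfpi1* in the annotation) was measured at 49.6 and 10.4 CPM in WT against 56.3 and 14.5 CPM in *Phf2* KO. *Irf8* (chromosome 8, 123260258 to 123280594, forward strand, 11 merged exons) was measured at 27.5 and 5.70 CPM in WT against 31.0 and 9.65 CPM in *Phf2* KO. For both genes the libraries numbered 1 were high whichever the genotype, so the groups overlapped. Within replicate numbers 1 and 2, *Spi1* was higher in *Phf2* KO by 0.18 and 0.48 log2 units and *Irf8* by 0.17 and 0.76. The smallest *Irf8* count was 148, and counting alone gives its second difference an error of 0.15. *Irf8* overlaps the gene model *Gm20388* on the same strand, between which reads could be split.

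Promoters were read because *Csf1r*, *Spi1*, *Irf8*, *Tyrobp*, *Trem2* and *Lyz2* moved together between libraries and PU.1 is itself encoded by *Spi1*. *Apoe* followed this pattern less, and *Cx3cr1* had too few counts to tell. RefSeq's table (GRCm38.p6, 250 bases before to 50 after a gene's start) held 6 of the 9 genes, namely *Csf1*, *Irf8*, *Trem2*, *Apoe*, *Cx3cr1* and *Lyz2*. The PU.1 core GAGGAAGT, on either strand, was in the windows of 0 of the 5 macrophage genes among them, against 3.69% of all 27025 genes in the table. The shorter GAGGAA, which the longer form contains, was in the windows of 2 of these 5 genes, *Trem2* and *Apoe*, against 31.3% of all genes. A match describes letters and is no sign of binding. The *Trem2* window (chr17:48346151-48346450, forward strand) holds it once, on the reverse strand, with its first base 40 bases before the start. The *Apoe* window is from 1 of 3 starts listed (chr7:19698349-19698648, reverse strand), with the motif 132 bases before the start on the gene's strand. Of the other *Apoe* starts, the one at 19699139 to 19699438 holds it 250 bases before the start and, on the reverse strand, from base 2 of the transcript, and the remaining one does not hold it. Capitals mark GAGGAA or its reverse complement.
*Trem2*: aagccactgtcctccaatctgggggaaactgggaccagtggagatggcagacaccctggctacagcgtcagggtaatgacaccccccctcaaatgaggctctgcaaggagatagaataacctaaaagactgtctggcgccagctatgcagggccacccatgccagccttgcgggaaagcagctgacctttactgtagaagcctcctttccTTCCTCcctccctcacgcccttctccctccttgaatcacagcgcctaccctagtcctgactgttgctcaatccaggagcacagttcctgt
*Apoe*: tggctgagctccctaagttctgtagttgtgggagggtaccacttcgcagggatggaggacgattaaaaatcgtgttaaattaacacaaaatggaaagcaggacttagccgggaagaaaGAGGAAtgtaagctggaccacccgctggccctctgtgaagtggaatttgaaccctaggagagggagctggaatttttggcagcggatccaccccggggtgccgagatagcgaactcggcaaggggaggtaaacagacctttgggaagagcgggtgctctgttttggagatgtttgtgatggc

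*Tyrobp* and *Trem2* encode a signalling pair: Trem2 is a surface receptor for lipids on macrophages, and Tyrobp (DAP12) is the adaptor through which it signals. *Tyrobp* (chromosome 7, 31198807 to 31202596, forward strand, 5 exons) was measured at 151 and 37.5 CPM in WT against 185 and 58.3 CPM in *Phf2* KO. *Trem2* (chromosome 17, 48485726 to 48493472, forward strand, 5 merged exons) was measured at 132 and 33.9 CPM in WT against 148 and 40.4 CPM in *Phf2* KO. The libraries numbered 1 were again the high ones for both. Within numbers 1 and 2, *Tyrobp* was higher in *Phf2* KO by 0.30 and 0.64 log2 units and *Trem2* by 0.17 and 0.25. The adaptor thus differed more than the receptor within each number, without a test of that difference. *Fcer1g*, the adaptor of Fc receptors, was measured at 143 and 29.5 CPM in WT against 144 and 41.1 CPM in *Phf2* KO.

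*Cx3cr1*, the fractalkine receptor of monocytes and microglia (chromosome 9, 119957811 to 119977400, reverse strand), was close to absent. It was counted 5 times in WT replicate 1, once in WT replicate 2, and 7 and 8 times in the *Phf2* KO libraries. The exact 95% Poisson intervals were 1.62 to 11.7, 0.0253 to 5.57, 2.81 to 14.4 and 3.45 to 15.8 counts, and those of every WT and *Phf2* KO library overlapped. It was removed as too low to test and no fold is given. Of the other microglia markers, *Tmem119* was measured between 164 and 213 CPM and did not follow the macrophage markers, and *Sparc*, the most abundant of that list, is also a fibroblast gene.

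*Apoe*, the lipid carrier that macrophages and some other cells secrete, differed from the rest. The gene (chromosome 7, 20281458 to 20284515, reverse strand, 6 merged exons) gave 9821 and 7414 counts in WT against 11452 and 10724 in *Phf2* KO MEFs, or 407 and 286 CPM against 553 and 446 CPM. Both *Phf2* KO libraries were above both WT libraries, which 15.5% of genes tested also were. The log2 fold change was 0.53 with a standard error of 0.22 and an unadjusted p of 0.0626 in edgeR, and *Apoe* was not called (edgeR, adjusted p = 0.999). DESeq2 gave it an unadjusted p of 0.0165 and did not call it either. At an unadjusted p under 0.05, edgeR put 1.54% and DESeq2 1.5% of all genes above WT. It remained between 0.28 and 0.82 with each library left out in turn. Replicate 1 exceeded replicate 2 by only 1.43-fold in WT and 1.24-fold in *Phf2* KO, so its level depended less on the replicate number than that of the macrophage genes above.

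*Lyz2* encodes the lysozyme of macrophages and granulocytes and had the highest level per kilobase of exons of the 9 genes in each library. The gene (chromosome 10, 116714390 to 116719377, reverse strand, 4 exons) gave 31934 and 8169 counts in WT against 35761 and 13796 in *Phf2* KO MEFs. These were 1325 and 315 CPM in WT against 1726 and 574 CPM in *Phf2* KO MEFs, and the groups overlapped because the libraries numbered 1 were high. Within numbers 1 and 2 it was higher in *Phf2* KO by 1.30-fold and 1.82-fold, while counting alone gives errors of 0.011 and 0.020 log2 units. The neighbouring paralog *Lyz1*, the lysozyme of Paneth cells, gave 61 and 6 counts in WT against 52 and 22 in *Phf2* KO MEFs. The coding sequences of both genes have 447 bases and differ at 22 of them, with the longest identical run at 118 bases. Of the 1264 stretches of 50 bases in the *Lyz2* transcript, 195 (15.4%) also occur in *Lyz1*, so the *Lyz1* counts and a part of the *Lyz2* counts are uncertain. The first 90 coding bases from the annotation's transcripts (NCBIM37), where 7 of the differences lie, are printed with the differing bases in capitals to show what separates the genes in a read.
*Lyz2*: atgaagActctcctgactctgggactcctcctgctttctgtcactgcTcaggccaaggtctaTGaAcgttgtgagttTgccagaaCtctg
*Lyz1*: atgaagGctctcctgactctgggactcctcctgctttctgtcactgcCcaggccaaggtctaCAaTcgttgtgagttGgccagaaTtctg

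By edgeR's quasi-likelihood test, 0 of the 8 members tested were called at an adjusted p under 0.1, against 0.00732% of all genes tested (0 higher and 1 lower). This fit holds genotype alone, and it did not call *Phf2* either, so a missing call is no sign of an unchanged gene. With the replicate number as a block, which the labels do not give as a pairing, 6 of the 8 were called higher. Of all genes, 5.77% were called higher and 11% in either direction. Without the block, none had an unadjusted p under 0.05, and DESeq2 and limma-voom also called 0 of them, against 0.483% and 0% of all genes. The replicates are described as biological, without saying whether they were separate cultures or embryos. By *Xist* and *Ddx3y*, the libraries numbered 1 differed in sex from those numbered 2, so they came from different embryos. Whether same-numbered libraries share an embryo is not stated. With 2 per group the p-values measure the spread between these samples alone. Without the block, that spread includes the difference between replicate numbers. For *Csf1r*, *Spi1*, *Irf8*, *Trem2*, *Tyrobp* and *Lyz2* the standard errors lay between 0.84 and 0.95 log2 units. With 1 library left out, the groups differ in replicate number, so the difference between numbers enters the fold change. All 6 were high in both libraries numbered 1, so the sign followed the library removed. These fits therefore do not show how stable the difference between genotypes was. Without *Phf2* KO replicate 1 all 6 had negative log2 fold changes, between -1.11 and -0.52, and without WT replicate 2 all 6 lay between -0.51 and -0.22. Without WT replicate 1 they lay between 1.49 and 1.88, and without *Phf2* KO replicate 2 between 0.83 and 1.06. None was called in any of these fits.

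Compared within each replicate number, 7 macrophage genes had more CPM in the *Phf2* KO library than in the WT library in both numbers, as were 32.6% of all genes tested. Their median difference was 0.19 log2 units in replicate 1 and 0.64 in replicate 2, against 0.012 and 0.0016 over all genes tested. *Csf1* was lower by 0.050 and 0.036 log2 units, and 30.2% of genes were lower in both numbers. Measured by the share of genes that differed at least as far in the same direction in both numbers, *Lyz2* stood at 0.644%, *Apoe* at 1.05%, *Irf8* at 1.32% and *Tyrobp* at 1.49%, followed by *Spi1* at 3.01%, *Csf1r* at 3.97%, *Trem2* at 6.77% and *Csf1* at 22.7%. These shares are descriptions, with no test. The reference markers differed between the numbers: their sum was 1.00-fold in replicate 1 and 1.44-fold in replicate 2, and 8 of 21 tested were higher in *Phf2* KO in both numbers. The difference in macrophage marker RNA therefore moved with that of the members in replicate 2 and not in replicate 1, and its part in the result was not tested.

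**Figure D2:**
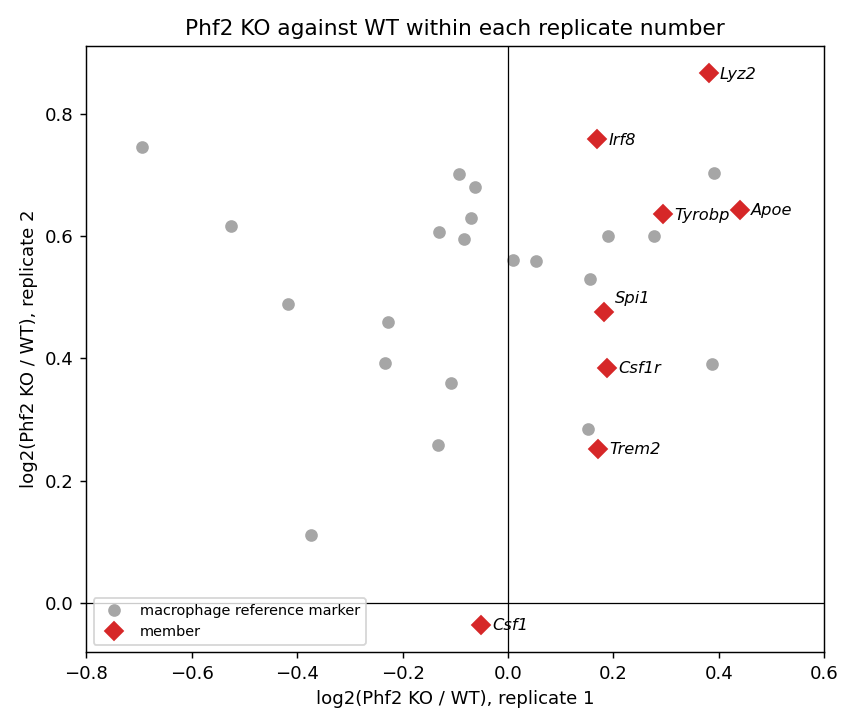
Log2 ratio of *Phf2* KO to WT normalized CPM within replicate 1 (horizontal axis) and within replicate 2 (vertical axis), with red diamonds for the 8 members tested and grey circles for the 21 macrophage reference markers tested. The 7 macrophage genes lie right of 0 and above 0, *Csf1* lies near 0 on both axes, and the reference markers are above 0 on the vertical axis but spread to both sides of 0 on the horizontal axis.

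Each member was next expressed per macrophage marker RNA, as a percentage of the summed CPM of the 22 reference markers in the same library. *Csf1r* was then nearly constant, at 7.90% and 8.39% in WT against 8.96% and 7.61% in *Phf2* KO. *Spi1* was at 1.53% and 1.58% in WT against 1.73% and 1.53% in *Phf2* KO. Over the 4 libraries the highest value exceeded the lowest by 1.18-fold for *Csf1r*, 1.13-fold for *Spi1*, 1.20-fold for *Irf8*, 1.27-fold for *Trem2* and 1.32-fold for *Tyrobp*. The receptor and its transcription factors therefore kept a near fixed ratio to the other macrophage markers, whose sum differed between replicate numbers by 4.92-fold in WT and 3.43-fold in *Phf2* KO. Relative to the markers, *Csf1r*, *Spi1* and *Trem2* were higher in *Phf2* KO in replicate 1 and lower in replicate 2, so their direction was not the same in both numbers.

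*Lyz2* varied more, by 1.48-fold. It was at 40.9% and 47.9% of the marker sum in WT and at 53.1% and 60.6% in *Phf2* KO, so that both *Phf2* KO libraries were above both WT libraries. On this scale 0.534% of all genes tested did so, but a gene steady in CPM could not, because the marker sum split by replicate number. That share is therefore no measure of how unusual *Lyz2* was. Relative to the markers *Lyz2* was higher in *Phf2* KO by 0.38 log2 units in replicate 1 and 0.34 in replicate 2. Over the sum of *C1qa*, *C1qb* and *C1qc* alone, its ratio was 1.81 and 2.03 in WT against 2.00 and 2.48 in *Phf2* KO, so the groups overlapped and the differences were 0.14 and 0.29 log2 units. *Tyrobp* was at 4.66% and 5.70% in WT against 5.70% and 6.15% in *Phf2* KO, which is higher by 0.29 and 0.11 log2 units within numbers. *Irf8* was at 0.851% and 0.867% in WT against 0.954% and 1.02% in *Phf2* KO, so it too had both *Phf2* KO libraries above both WT libraries. Over *C1qa*, *C1qb* and *C1qc* alone its ratio was 0.0376 and 0.0368 in WT against 0.0359 and 0.0417 in *Phf2* KO, where the groups overlapped. *Apoe* was at 12.6% and 43.4% in WT against 17.0% and 47.1% in *Phf2* KO, so its ratio differed more between replicate numbers than between groups. *Csf1* spanned 4.98-fold, from 17.6% to 87.5%, with a steady level of its own over a marker sum that was not. The median over the 7 macrophage genes was higher in *Phf2* KO by 0.18 log2 units in replicate 1 and 0.11 in replicate 2. When the sum of *C1qa*, *C1qb* and *C1qc* alone was the base, this median was -0.049 and 0.057, so the direction in replicate 1 depended on the markers chosen.

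**Figure D3:**
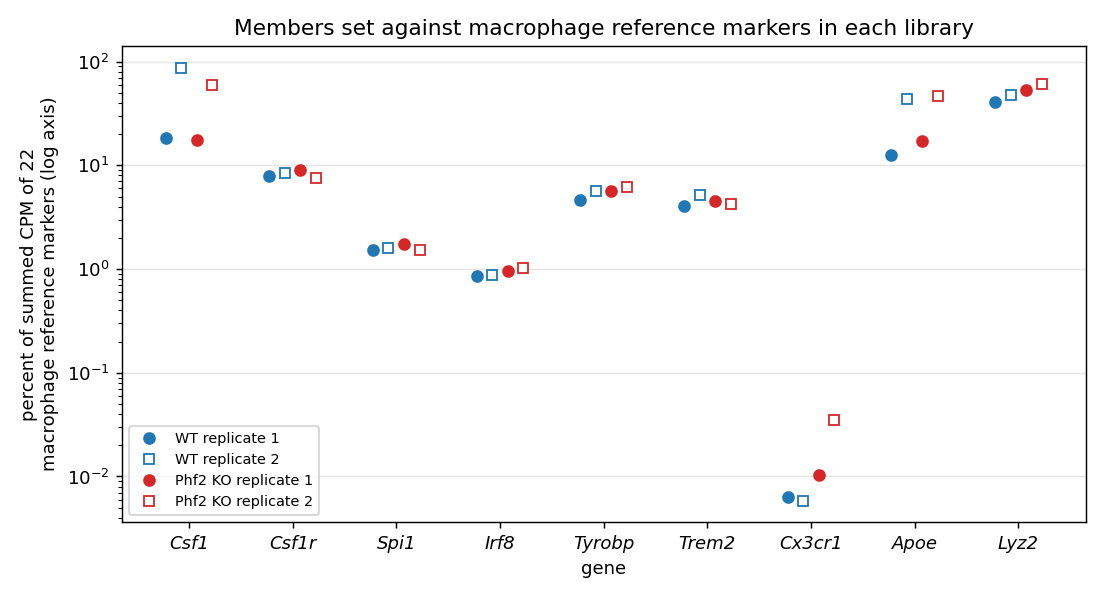
Level of the 9 genes in each library as a percentage of the summed normalized CPM of 22 macrophage reference markers (log axis), with 1 point per library and the same symbols by genotype and replicate as in the plot of CPM. *Csf1r* and *Spi1* span 1.18-fold and 1.13-fold over the 4 libraries, *Lyz2* goes from 40.9% to 60.6%, and *Csf1* and *Apoe* split by replicate number.

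Compared with each other per kilobase of exons, the levels in WT were 624 ± 544 (SD, n = 2) CPM per kb for *Lyz2*, 175 ± 43.5 for *Apoe*, 167 ± 142 for *Tyrobp* and 111 ± 2.03 for *Csf1*. Below them stood *Csf1r* at 29.7 ± 27.1 CPM per kb, *Trem2* at 16.7 ± 14.0, *Spi1* at 11.1 ± 10.3, *Irf8* at 2.36 ± 2.19 and *Cx3cr1* at 0.033 ± 0.032. The WT ranges of *Lyz2* and *Apoe* did not overlap, nor did those of *Csf1* and *Csf1r* or of *Irf8* and *Cx3cr1*, while the other neighbours in this order overlapped. The order of these means hides a difference between replicate numbers. In both groups *Tyrobp* ranked 2 and stood above *Apoe* and *Csf1* in replicate 1, but ranked 4 and stood below them in replicate 2, while the other members kept their order among themselves. In *Phf2* KO the levels ran from 876 ± 620 (SD, n = 2) CPM per kb for *Lyz2* to 0.0899 ± 0.000958 for *Cx3cr1*. The small SD of *Cx3cr1* understates its error, since it rests on 7 and 8 counts. Their 95% Poisson intervals were 2.81 to 14.4 and 3.45 to 15.8 counts. When the longest coding transcript replaced the union of exons, an alternative chosen after the data were seen, *Trem2* stood at 121 and 31.2 CPM per kb in WT replicates 1 and 2 and passed *Csf1r* at 54.4 and 11.7.

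The rest of the pathway showed the same division between fibroblast and macrophage genes, and no gene of any list was called. Of the 6 receptors tested, 3 were higher in *Phf2* KO within both numbers and 1 was lower. *Csf2rb*, the shared chain of the GM-CSF and interleukin receptors, followed *Csf1r*, with 21.7 and 4.55 CPM in WT against 21.3 and 6.20 CPM in *Phf2* KO. *Csf3r*, the granulocyte factor receptor, was at 2.49 and 0.771 CPM in WT against 2.99 and 0.832 CPM in *Phf2* KO. *Csf2ra*, at 31.0 to 36.7 CPM, and the alternative Il34 receptors *Ptprz1*, at 58.2 to 83.4 CPM, and *Sdc1*, at 86.9 to 121 CPM, did not follow it. Of 16 genes tested that act below Csf1r, 9 were higher within both numbers and 3 lower, with median log2 fold change 0.073 against 0.0054 over all genes. *Syk*, the kinase recruited by Tyrobp, was at 83.9 and 21.3 CPM in WT against 100 and 29.6 CPM in *Phf2* KO. *Grb2* and *Gab2*, general adaptors below receptor tyrosine kinases, stayed between 49.4 and 73.2 CPM in all libraries. *Pik3r1*, a regulatory subunit of PI3-kinase, was at 128 and 139 CPM in WT against 92.6 and 95.1 CPM in *Phf2* KO, and was the 1 gene of this list with an unadjusted p under 0.05, against 2.67% of all genes in that direction.

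Among 15 myeloid transcription factors tested, 10 were higher in *Phf2* KO within both numbers and 3 were lower. *Fli1*, at 17.1 and 8.52 CPM in WT against 19.5 and 10.4 CPM in *Phf2* KO, *Nr1h3*, *Ikzf1*, *Tfec*, *Irf5* and *Maf* shared the higher level of the libraries numbered 1. *Nr1h3*, which encodes the oxysterol receptor LXRα, was at 8.21 and 2.58 CPM in WT against 9.85 and 4.49 CPM in *Phf2* KO. *Klf4* and *Cebpb*, which fibroblasts also express, were between 92.5 and 111 CPM and between 61.6 and 77.6 CPM. *Cebpa*, *Runx1* and *Mitf* had mean levels between 16.0 and 34.1 CPM over the 4 libraries, *Runx3* was at 1.03 CPM, and *Batf3* was counted at most 10 times in a library. Of 7 genes tested among Tyrobp, its partner receptors and related adaptors, 4 were higher within both numbers and 0 lower. *Itgb2*, the integrin β2 chain, was at 118 and 27.7 CPM in WT against 133 and 36.6 CPM in *Phf2* KO. *Ms4a7*, *Cd300lb* and *Clec5a* were lower in *Phf2* KO in replicate 1 and higher in replicate 2, and *Treml4* was counted at most 9 times.

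Of 10 lysozymes, oxidase subunits and other phagocyte effectors, 8 were higher in *Phf2* KO within both numbers (32.6% of all genes were) and 0 lower, *Lyz2* among the 8, with a median log2 fold change of 0.31 against 0.0054 over all genes. The list moved with the macrophage reference markers in replicate 2, where its median difference was 0.52 and theirs 0.56 log2 units, and in replicate 1 the medians were 0.17 and -0.083; their part in the result was not tested. The NADPH oxidase, which makes superoxide in phagosomes, was read from *Cybb*, *Cyba*, *Ncf1* and *Ncf4* among others. *Cyba*, which is broadly expressed, was at 172 and 119 CPM in WT against 226 and 135 CPM in *Phf2* KO. *Ncf1*, *Ncf4* and *Cybb* were higher within both numbers by 0.082 to 0.49 log2 units. *Slc11a1*, a phagosomal metal transporter, was at 54.4 and 14.1 CPM in WT against 62.1 and 24.0 CPM in *Phf2* KO. *Mpeg1*, a pore-forming protein, went the other way in replicate 1, with 430 and 81.9 CPM in WT against 367 and 113 CPM in *Phf2* KO, and *Ctss*, a lysosomal protease, was at 185 and 31.2 CPM in WT against 186 and 46.0 CPM in *Phf2* KO. *Mpeg1* and *Ctss* also belong to the reference markers.

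Genes of lipid handling were read beside *Apoe*. Of 15 tested, 8 were higher in *Phf2* KO within both numbers and 3 lower, with a median log2 fold change of 0.14. *Lpl*, lipoprotein lipase, was at 1389 and 911 CPM in WT against 1809 and 1201 CPM in *Phf2* KO, higher by 0.38 and 0.40 log2 units within numbers. *Abca1*, a cholesterol exporter, was at 528 and 359 CPM in WT against 617 and 385 CPM in *Phf2* KO. *Gpnmb*, a glycoprotein of lipid-laden macrophages, was at 4066 and 1189 CPM in WT against 4423 and 1595 CPM in *Phf2* KO. *Lrp1*, a receptor for Apoe that fibroblasts express strongly, was at 4731 and 4364 CPM in WT against 4654 and 3748 CPM in *Phf2* KO. *Abcg1*, another cholesterol exporter named here after its values were seen, was at 53.7 and 13.9 CPM in WT against 78.1 and 23.2 CPM in *Phf2* KO, higher by 0.54 and 0.74 log2 units.

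**Figure D4:**
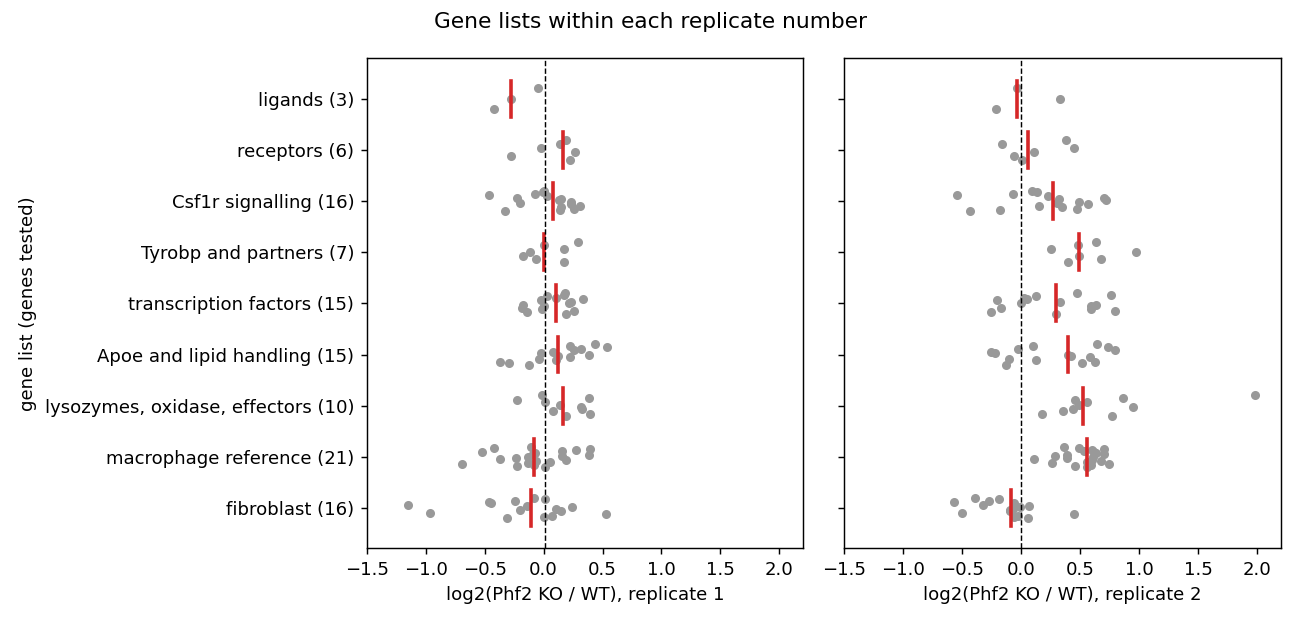
Log2 ratio of *Phf2* KO to WT normalized CPM within replicate 1 (left) and replicate 2 (right) for each tested gene of 9 lists, with 1 grey point per gene, a red line for the median of the list and a dashed line for the median of all genes tested. The macrophage reference markers have a median of -0.083 in replicate 1 and 0.56 in replicate 2, the phagocyte effectors 0.17 and 0.52, and the fibroblast genes -0.11 and -0.082.

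Markers of other cell types were read in the same libraries. Among the macrophage reference markers, *Cd68* was at 570 and 123 CPM in WT against 529 and 158 CPM in *Phf2* KO, and all 21 tested were higher in replicate 1 by over 1 log2 unit in both groups, as were 3.99% of all genes. *Laptm5*, a lysosomal protein of blood cells, was at 424 and 98.3 CPM in WT against 483 and 149 CPM in *Phf2* KO, and *C1qb*, of complement C1q, at 385 and 84.2 CPM in WT against 467 and 128 CPM in *Phf2* KO. None of the neutrophil or lymphocyte markers had enough counts to be tested, and their sums were at most 0.290 and 0.541 CPM. *Camp* was counted at most 5 times in a library and the other neutrophil markers at most 1 time each, and *Cd79a* and *Cd3e* were the most abundant lymphocyte markers, with at most 6 and 8 counts in a library. Mast cell markers summed to between 1.49 and 2.08 CPM, led by *Kit*, *Ms4a2* and *Cpa3*, and dendritic cell markers to between 2.61 and 3.39 CPM, led by *Zbtb46*, *Itgax* and *Itgae*. Of the erythroid markers *Epor*, *Klf1* and *Alas2* were the most abundant, and the globin genes listed were at 0 in every library. The osteoclast list summed to 231 and 143 CPM in WT against 208 and 134 CPM in *Phf2* KO, with *Ctsk*, *Atp6v0d2* and *Nfatc1* the highest, and the endothelial list, led by *Vwf*, *Kdr* and *Tek*, to between 21.3 and 51.7 CPM. *Vwf* followed the macrophage markers, at 26.8 and 5.86 CPM in WT against 26.8 and 8.40 CPM in *Phf2* KO. The endothelial markers *Pecam1* and *Cdh5* were counted at most 5 and 6 times in a library, and *Tie1* and *Cldn5* 0 times. The fibroblast list, led by *Col1a1*, *Col1a2* and *Fn1*, was lower in both *Phf2* KO libraries (79506 and 76759 CPM) than in both WT libraries (89163 and 92345 CPM), with 3 of 16 genes at an unadjusted p under 0.05 in that direction, against 2.67% of all genes. Of the 16, 7 were lower within both numbers and 1 was higher, against 30.2% and 32.6% of all genes tested.

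Genes were ranked by the distance of their centred log2 CPM profile over the 4 libraries to that of *Csf1r*, among 12533 genes. The nearest were *Myo1g* (a myosin of blood cells), *Spi1*, *Cybb*, *Ncf4*, *Ms4a6c*, *C1qc*, *Lyl1*, *Tal1*, *Pik3r5* and *Aoah*, at distances between 0.058 and 0.135 log2 units. *Myo1g* was at 31.4 and 6.67 CPM in WT against 35.9 and 8.32 CPM in *Phf2* KO. Of the other members *Trem2* ranked 42, *Irf8* 90, *Tyrobp* 104, *Lyz2* 172, *Apoe* 1050 and *Csf1* 5051. Nearest to *Csf1* were *Naa60*, *Pdzd11*, *Plscr3*, *Mon2* and *Ammecr1l*, whose levels were as steady as its own, and the macrophage member nearest to it, *Apoe*, ranked 11331. The profiles have only 4 points each, and likeness here includes the difference between replicate numbers.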

How the data were processed

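The authors trimmed single reads of 50 nt with Trim Galore, removed ribosomal RNA with Bowtie2, aligned to mm9 with STAR and counted with featureCounts; versions and gene annotation are not given in the sources used here. The deposited counts are whole and not normalized. The authors' table of DESeq2 fold changes and p-values was not used.

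The fit was run with edgeR 4.0.16 in R 4.3.3 (filterByExpr, TMM, glmQLFit and glmQLFTest on genotype; Benjamini-Hochberg over 13668 genes, called at 0.1); limma-voom (limma 3.58.1) and DESeq2 1.42.0 served as alternatives. Calculations were tested on simulated data. The counts simulated for the fits held known changes by genotype and no difference between replicate numbers. That check therefore does not cover how the fits handle such a difference. Positions and exon lengths came from GENCODE M1 on NCBIM37 (mm9), promoters from RefSeq on GRCm38.p6. Figures used Matplotlib 3.10.9. Same-numbered libraries were compared as ratios of normalized CPM.

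The members and lists were chosen with earlier results of these data known. Named were the members, *Phf2*, genes with at least 10 counts in the lists of ligands, receptors, Tyrobp partners, transcription factors and effectors, the 4 most abundant of the signalling and lipid lists, the 3 most abundant of each cell type, the 10 genes nearest to *Csf1r* and the 5 nearest to *Csf1* in profile (pseudocount 0.5 CPM, mean of at least 1 CPM). A few genes that this rule names are not reported here.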

Additional observations from a re-analysis of the deposited data

How the results depend on the processing

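Whether replicate numbers pair the libraries is not stated. The difference between replicates 1 and 2 in WT correlated with that in *Phf2* KO across 11553 genes (Pearson's r = 0.850; genes are not independent replicates). With a replicate block in edgeR's fit, 1500 genes were called (11% of genes tested), 789 higher (5.77%) and 711 lower (5.2%), on 1 residual degree of freedom. Of the members 6 were then called higher in *Phf2* KO, *Lyz2* (log2 fold change 0.62, adjusted p = 7.89e-08), *Apoe* (0.54, adjusted p = 2.45e-07), *Tyrobp* (0.45, adjusted p = 7.57e-06), *Csf1r* (0.28, adjusted p = 0.0189), *Irf8* (0.39, adjusted p = 0.0198) and *Spi1* (0.30, adjusted p = 0.0424), while *Trem2* (0.21, adjusted p = 0.122) and *Csf1* (-0.043, adjusted p = 0.866) were not.

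Without the block, 1 gene was called by edgeR, 66 by DESeq2 and 0 by limma-voom, 0 at a threshold of 0.05 and between 0 and 0 with each library left out, and no member under any of these. RLE scaling, library size alone and both other filters left 1 gene called and every member's direction as it was. Leaving out each library in turn, log2 fold changes ran from -1.11 to 1.73 for *Csf1r*, -1.05 to 1.77 for *Spi1*, -0.78 to 1.84 for *Irf8*, -1.04 to 1.49 for *Trem2*, -0.69 to 1.71 for *Tyrobp* and -0.52 to 1.88 for *Lyz2*; in these fits the lone library of a group is assumed to vary like the other group. Relative to *C1qa*, *C1qb* and *C1qc*, the median of the 7 macrophage genes was -0.049 in replicate 1 and 0.057 in replicate 2, against 0.18 and 0.11 with all markers. In the fits with 1 library left out, the groups differ in replicate number, so those ranges include the difference between numbers. Why the median moved with the markers chosen was not tested. *Cx3cr1* had too few counts to test, and counting gave *Irf8* errors of 0.080 and 0.15 log2 units within replicate numbers 1 and 2.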
